A study of Mus musculus with 10 samples.

Results

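AP-1 is a family of dimeric transcription factors built from Fos, Jun and Atf subunits, which pair through a leucine zipper and bind DNA through the basic region beside it. Its genes belong to the immediate-early genes, which are transcribed within minutes of a stimulus without new protein synthesis and whose mRNAs are short-lived. In myeloid cells, lipopolysaccharide (LPS), a component of the outer membrane of Gram-negative bacteria, signals through TLR4 to MAP kinases, which act on AP-1, and to NF-κB. The 10 genes examined here were chosen by name and comprise 3 Fos-family genes (Fos, Fosb, Fosl2), 3 Jun-family genes (Jun, Junb, Jund), the CREB-family repressor Atf3, the zinc finger factor Egr1, and the immediate early response genes Ier2 and Ier3. All 10 were among the 13091 genes measured.

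The cells were mouse neutrophils of the 129-SVEV strain, grown from bone marrow progenitors that carry an estrogen-dependent HoxB8 from a lentivirus, were selected with G418 and were expanded as clones from sorted single cells. PolyA RNA of 4 groups was sequenced: unstimulated Vim+/+ (2 libraries), Vim+/+ after LPS (2 libraries), unstimulated Vim-/- (3 libraries) and Vim-/- after LPS (3 libraries), where LPS was given at 25 ng/mL for 1 hour. All groups share the HoxB8 immortalization and the differentiation in culture. The sample labels call the Vim-/- cells a knockdown, and the methods trace them to knockout mice. The age of the mice is not given in the sources used here. The labels give 2 Vim+/+ and 3 Vim-/- biological replicates and do not say which clone each came from. A difference between genotypes and a difference between clones cannot be told apart.

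The deposited values are fitted comparisons and a mean over libraries. Per-library values were not used here, so library depth and the number of replicates that share a direction are unknown. The standard error (SE) of each fold change comes from a model with 4 RUVSeq covariates for unwanted variation. It need not carry the full variation among replicates, and p-values rest on few replicates. A log2 fold change passed when its adjusted p was under 0.05, and brackets give 95% confidence intervals. Vim itself had a log2 fold change of -13.56 in unstimulated and -12.44 in LPS-treated Vim-/- over Vim+/+ neutrophils. All 12 neutrophil marker genes were measured, with a mean normalized count of at least 11373, and the 3 erythroid markers were not in the tables. Markers of granulocyte progenitors (6 of 6), monocytes and macrophages (5 of 6), basophils and mast cells (4 of 5, Fcer1a absent) and lymphocytes (2 of 5) were also measured. Their summed mean normalized counts were 223000, 47781, 31587 and 1033, against 4325250 for the neutrophil markers.

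The following 5 promoter stretches are shown because these genes carry the results that follow. Junb and Ier3 rose with LPS in both genotypes, and Fos fell in Vim+/+ neutrophils. Jun differed between the unstimulated genotypes, and Fosb between the genotypes in both treatments. Each is written 5′ to 3′ on the strand of its gene from 200 bases before the RefSeq transcription start (build GRCm38.p6, equivalent to mm10) and ends at the base before the start or, for Ier3 and Fosb, before the first base annotated as transcribed. Capitals mark matches, on either strand, to TGACG (the core of the cAMP response element), to TGACATCA (the AP-1-like element of the Jun promoter), to GCGNGGGCG (the Egr site), to TGACTCA (the AP-1 site), to TATAAA (the TATA box where it lies shortly before a start), to the CArG box bound by SRF, or to the NF-κB consensus. The stretches are chr8:84978749-84978948 on the minus strand for Junb, chr17:35821513-35821683 on the plus strand for Ier3, chr12:85473690-85473889 on the plus strand for Fos, chr4:95052223-95052422 on the minus strand for Jun and chr7:19310119-19310245 on the minus strand for Fosb.
Junb: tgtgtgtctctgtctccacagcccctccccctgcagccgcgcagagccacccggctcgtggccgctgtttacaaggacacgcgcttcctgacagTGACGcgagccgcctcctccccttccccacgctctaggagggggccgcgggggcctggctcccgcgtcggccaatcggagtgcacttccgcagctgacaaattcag
Ier3: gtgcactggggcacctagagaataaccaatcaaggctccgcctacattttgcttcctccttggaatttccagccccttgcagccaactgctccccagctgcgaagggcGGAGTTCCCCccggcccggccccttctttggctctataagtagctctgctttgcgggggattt
Fos: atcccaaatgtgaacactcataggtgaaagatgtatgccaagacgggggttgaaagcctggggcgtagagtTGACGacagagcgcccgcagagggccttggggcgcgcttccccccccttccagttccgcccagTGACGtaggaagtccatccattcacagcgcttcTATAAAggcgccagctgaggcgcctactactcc
Jun: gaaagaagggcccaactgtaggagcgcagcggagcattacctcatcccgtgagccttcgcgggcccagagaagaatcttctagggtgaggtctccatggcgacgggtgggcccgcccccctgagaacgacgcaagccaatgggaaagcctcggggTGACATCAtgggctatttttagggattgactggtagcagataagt
Fosb: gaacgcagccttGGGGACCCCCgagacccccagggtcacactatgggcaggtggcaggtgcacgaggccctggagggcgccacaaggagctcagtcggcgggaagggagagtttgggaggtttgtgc

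Promoter windows from 250 bases before to 50 bases after the start were on file for 8 members, 1 window each. TGACG was found in 4 of the 8 windows (Fos, Fosb, Junb, Atf3), and in 20.8% of the 32851 windows of all genes. Fos held it 2 times, from 129 to 125 and from 66 to 62 bases before the start. The NF-κB consensus was found in 5 of the 8 (Fos, Fosb, Fosl2, Atf3, Ier3), and in 26.8% of all windows. In Fosl2 there were 2 overlapping matches, GGGAGTCCCC from 182 to 173 and GGAGTCCCCC from 181 to 172 bases before the start, and in Ier3 it was GGAGTTCCCC, from 92 to 83 bases before it. TGACATCA was found in Jun alone of the 8, from 45 to 38 bases before the start, and in 3.62% of all windows. GCGNGGGCG was found in Fosl2 and Fosb and in 5.55% of all windows, TATAAA in Fos (33 to 28 bases before the start) and Junb (from the start base onward, so not before it) and in 13.6%, and TGACTCA and the CArG box in 0 of the 8 (5.20% and 1.63% of all windows). Matches to different motifs did not overlap in these 8 windows, and a match on both strands at 1 place was taken as 1. These are matches of letters and no measurement of binding.

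Among the 7 AP-1 subunit genes of this set, the Jun family made up most of the summed mRNA level. Other measured subunit genes, such as Jdp2 and Atf2, are outside that sum. Divided by the length of the longest annotated transcript, the mean normalized count over all libraries was 16742 per kb for Jund and 16545 per kb for Junb, each at the 98.1st percentile of the 12046 genes with a known transcript length. Jun, the founding Jun protein, stood at 1341 per kb. Among Fos-family genes, Fosl2 stood at 1461, Fos at 667 and Fosb at 161 per kb. Junb and Jund together held 88.2% of the summed level per kb of the 7 subunit genes, the 3 Fos-family genes 6.07% and Atf3 2.13%. Ier3 and Ier2 stood at 5347 and 4874 per kb and Egr1 at 372 per kb, near the middle of those genes (53.9th percentile). Each level is a mean over all 10 libraries, of which more are Vim-/- than Vim+/+. The change with LPS within it is given next.

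After 1 hour of LPS, Junb, Ier3 and Fosl2 rose in neutrophils of both genotypes. Of the other AP-1 subunit genes, Fos fell in Vim+/+ neutrophils, and Fosb, Jun, Jund and Atf3 did not pass in either genotype. Of the 10 members, 3 rose and 1 fell in Vim+/+ neutrophils, where 1.80% of 13091 genes rose and 0.374% fell. In Vim-/- neutrophils 3 rose and 0 fell by DESeq2, where 1.51% of 12329 genes rose and 0.698% fell, and 1 member (Atf3) had a lower value at an unadjusted p under 0.05, as did 3.91% of genes. At that threshold 5 members had a higher value (Jun and Ier2 beside the 3 that passed), as did 435 of 13091 genes. The median log2 fold change of the members was 0.07 and 0.46 in Vim+/+ and Vim-/- neutrophils, beside 0.01 and -0.02 for all genes. In bulk RNA, a lower value can come from fewer cells of a type or from less RNA per cell, which cannot be told apart.

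**Figure D1:**
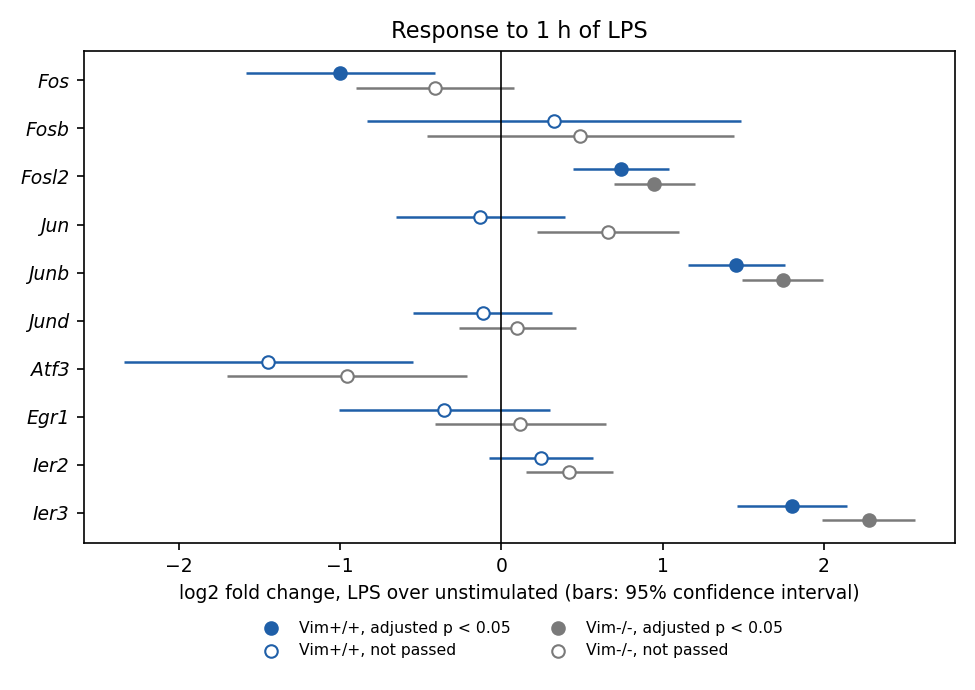
Log2 fold change of each member after LPS over unstimulated (x axis) in Vim+/+ (blue) and Vim-/- (grey) neutrophils, with 95% confidence intervals as bars and filled points for an adjusted p under 0.05. Junb, Fosl2 and Ier3 lie to the right of 0 in both genotypes, Fos and Atf3 to the left, and the interval of Fos in Vim-/- neutrophils crosses 0.

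Junb encodes a Jun protein that pairs with Fos proteins and is a weaker activator than Jun on many AP-1 sites. The gene lies at chr8:84976909-84978748. It rose 2.74-fold in Vim+/+ neutrophils [2.23 to 3.38] (log2 1.46, SE 0.153, adjusted p = 1.04e-18). In Vim-/- neutrophils it rose 3.35-fold [2.81 to 3.99] (log2 1.74, SE 0.129, adjusted p = 5.40e-39). The intervals of both genotypes overlapped.

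Ier3, which encodes a small protein linked to survival and to the ERK pathway and is a known NF-κB target, had the largest LPS response of the 10 members in both genotypes. The gene lies at chr17:35821713-35822911. It rose 3.49-fold [2.75 to 4.42] in Vim+/+ neutrophils (log2 1.80, SE 0.174, adjusted p = 2.95e-22). In Vim-/- neutrophils it rose 4.84-fold [3.96 to 5.92] (log2 2.28, SE 0.148, adjusted p = 7.95e-51). Its close namesake Ier2, a nuclear protein of serum-stimulated cells, did not pass, with log2 fold changes of 0.25 (SE 0.164, adjusted p = 0.630) and 0.42 (SE 0.138, adjusted p = 0.0862).

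Fosl2 (Fra-2), a Fos protein that lacks the strong activation domain of Fos, lies at chr5:32136472-32157840. It rose 1.67-fold [1.36 to 2.06] in Vim+/+ neutrophils (log2 0.74, SE 0.152, adjusted p = 0.000123) and 1.93-fold [1.62 to 2.29] in Vim-/- neutrophils (log2 0.95, SE 0.128, adjusted p = 2.36e-11). Fos, at chr12:85473890-85477274, is the classic immediate-early gene of the family. It was 2.0-fold lower after LPS [1.33 to 3.0] in Vim+/+ neutrophils (log2 -1.0, SE 0.300, adjusted p = 0.0428). This call was lost when the Wald statistics (fold change over SE) of all genes were rescaled to a robust spread of 1 (adjusted p = 0.209) and when fold changes were centred on genes of like transcript length (adjusted p = 0.105). In Vim-/- neutrophils Fos had a log2 fold change of -0.41 (SE 0.250, adjusted p = 0.872).

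Atf3, which is induced by stress and by TLR signals and represses inflammatory genes, lies at chr1:191170296-191183333. Its log2 fold change with LPS was -1.44 [-2.34 to -0.55] in Vim+/+ neutrophils (SE 0.457, adjusted p = 0.0651). In Vim-/- neutrophils it was -0.96 [-1.70 to -0.21] (SE 0.380, adjusted p = 0.297), so neither comparison passed although both intervals lay under 0. Egr1, a growth-factor-induced zinc finger activator, had log2 fold changes of -0.35 (SE 0.333, adjusted p = 0.779) and 0.12 (SE 0.271, adjusted p = 1). Fosb, whose product is the Fos protein most like Fos, had 0.33 (SE 0.591, adjusted p = 0.931) and 0.49 (SE 0.486, adjusted p = 1). The intervals of Fosb were wide, from -0.83 to 1.49 in Vim+/+ neutrophils. Jun, a strong activator that binds DNA with Fos proteins, had a log2 fold change of -0.13 [-0.65 to 0.39] in Vim+/+ neutrophils (SE 0.266, adjusted p = 0.947). In Vim-/- neutrophils it was 0.66 [0.22 to 1.10] (SE 0.224, adjusted p = 0.113), which did not pass although the interval lay above 0. Jund, which is constitutively expressed in many cells, stayed within narrow intervals, from -0.54 to 0.31 in Vim+/+ and from -0.26 to 0.46 in Vim-/- neutrophils.

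Between the genotypes, Fosb and Egr1 were higher and Ier3 was lower in Vim-/- neutrophils in both treatments. Jun was lower in unstimulated Vim-/- neutrophils and Fos was higher in Vim-/- neutrophils after LPS, and neither gene passed in the other treatment. Without stimulation 2 of the 10 members were higher and 2 lower in Vim-/- neutrophils, where 12.6% of 12837 genes were higher and 6.15% lower. After LPS 3 were higher and 1 lower, where 6.68% of 12837 genes were higher and 4.35% lower. The genotype difference was thus common across genes, and the median log2 fold change of the members was -0.13 and 0.13, beside 0.08 and 0.03 for all genes. The comparisons without and with LPS come from the same fit and from replicates that the labels pair, so they are not independent of each other.

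**Figure D2:**
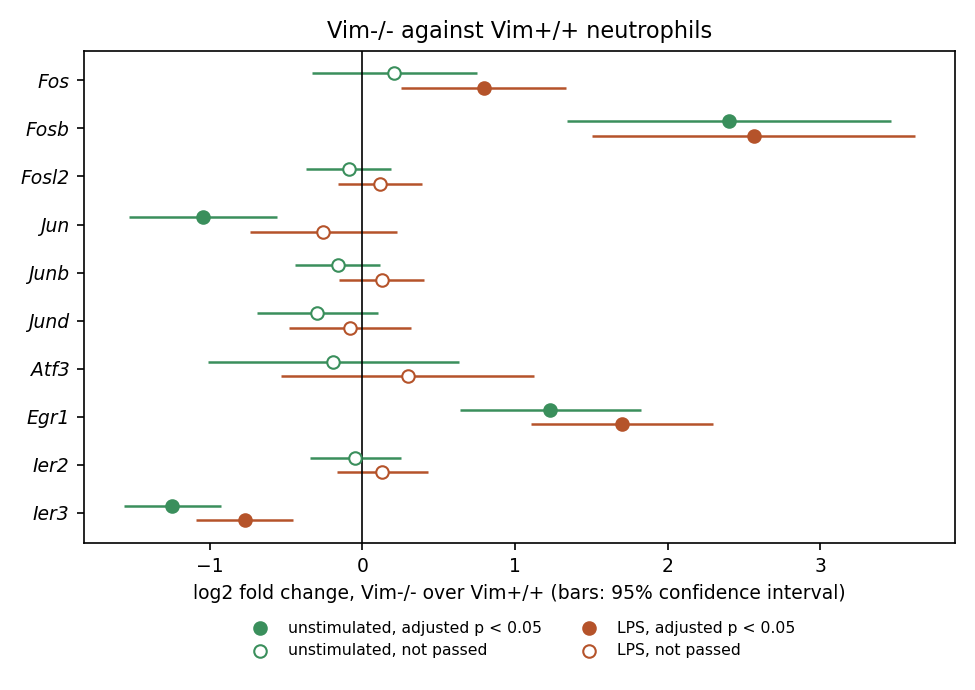
Log2 fold change of each member in Vim-/- over Vim+/+ neutrophils (x axis), unstimulated (green) and after LPS (brown), with 95% confidence intervals as bars and filled points for an adjusted p under 0.05. Fosb and Egr1 lie to the right of 0 and Ier3 to the left in both treatments, while Jun is filled only without stimulation and Fos only after LPS.

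Fosb, at chr7:19302696-19310118, had the largest genotype difference of the 10 members. Unstimulated Vim-/- neutrophils had 5.28 times the Fosb level of Vim+/+ neutrophils, with an interval of [2.53 to 11.0] (log2 2.40, SE 0.542, adjusted p = 0.000206). After LPS it was 5.91-fold higher [2.84 to 12.3] (log2 2.56, SE 0.540, adjusted p = 8.37e-05). With the Wald statistics rescaled to a robust spread of 1, Fosb did not pass in either treatment (adjusted p = 0.431 and 0.0795). The counts behind Fosb were the lowest of the 10 members, with a mean normalized count of 607.

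Egr1 without stimulation was 2.35-fold higher in Vim-/- neutrophils [1.56 to 3.54] (log2 1.23, SE 0.303, adjusted p = 0.000776). After LPS it was 3.25-fold higher [2.15 to 4.91] (log2 1.70, SE 0.303, adjusted p = 1.39e-06). At the robust spread the difference without stimulation no longer passed (adjusted p = 0.535), whereas the one after LPS did (adjusted p = 0.0163). Neither Fosb nor Egr1 passed for LPS in either genotype.

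Ier3 was 2.37-fold lower in unstimulated Vim-/- neutrophils [1.90 to 2.96] (log2 -1.24, SE 0.163, adjusted p = 3.19e-12). After LPS it was 1.71-fold lower [1.37 to 2.12] (log2 -0.77, SE 0.161, adjusted p = 6.42e-05). Ier3 kept an adjusted p under 0.05 in both treatments under each alternative to the test, at most 0.00275 and 0.0459. After LPS its difference was under 1 log2 unit, so it failed the alternative that also asks for more than that. Jun, at chr4:95049036-95052222, was 2.06-fold lower in unstimulated Vim-/- neutrophils [1.48 to 2.89] (log2 -1.05, SE 0.247, adjusted p = 0.000424). After LPS its log2 fold change was -0.26 [-0.74 to 0.23] (SE 0.246, adjusted p = 0.606). At the robust spread the difference in Jun without stimulation did not pass (adjusted p = 0.331).

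Fos did not pass between the unstimulated genotypes, at a log2 fold change of 0.21 (SE 0.276, adjusted p = 0.662). After LPS it was 1.73-fold higher in Vim-/- neutrophils [1.19 to 2.53] (log2 0.79, SE 0.277, adjusted p = 0.0402). That call was narrow, with an adjusted p of 0.0517 when fold changes were measured from the median of the genes counted at 100 or more on average, and 0.600 at the robust spread. Junb, Jund, Fosl2, Atf3 and Ier2 did not pass in either treatment. Their log2 fold changes lay between -0.30 for Jund without stimulation and 0.30 for Atf3 after LPS. The intervals of Junb, -0.44 to 0.12 without stimulation and -0.15 to 0.40 after LPS, were the narrowest of the AP-1 subunit genes together with those of Fosl2.

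These calls depended on how the spread of all genes was treated. At the robust spread 1 of the 10 members (Ier3) passed without stimulation and 2 (Egr1 and Ier3) after LPS, where 1.44% and 2.22% of 13091 genes did. Asking for a difference of over 1 log2 unit as well left Fosb and Egr1 between the LPS-treated genotypes (2 of 10, where 5.32% of genes were left). The same rule left Junb and Ier3 for LPS in Vim+/+ neutrophils (2 of 10, where 1.31% of genes were left). Between the unstimulated genotypes all 4 calls were left by it, as were those of 917 of 12837 genes.

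Markers of other cells and of maturation moved with the same comparison. Without stimulation, 3 of 6 granulocyte progenitor markers were lower in Vim-/- neutrophils, with Ctsg at a log2 fold change of -2.55 (SE 0.289), Prtn3 at -1.14 (SE 0.214) and Cd34 at -1.01 (SE 0.183). The list's median was -1.08 without stimulation and -0.73 after LPS. Of the 12 neutrophil markers, 5 were higher without stimulation and 2 after LPS, with medians of 0.32 and 0.22, beside 0.08 and 0.03 for all genes. Of 5 monocyte and macrophage markers, 2 were lower in each treatment (Csf1r and Adgre1), and of 4 basophil and mast cell markers 2 were lower without stimulation and 1 after LPS. Nkg7 was lower in both treatments, and Cd79a after LPS. Over all genes 12.6% were higher and 6.15% lower without stimulation, and 6.68% and 4.35% after LPS. The part of these markers in the differences of Fosb, Egr1, Jun and Ier3 was not tested. LPS moved 0 of the 12 neutrophil and 0 of the 6 progenitor markers in either genotype by DESeq2. At an unadjusted p under 0.05, 1 neutrophil marker was higher in Vim+/+ and 3 were lower in Vim-/- neutrophils, as were 1032 and 512 of 13091 genes. At that threshold 0 progenitor markers moved in either genotype.

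The 4 groups could be placed on 1 log2 scale, with unstimulated Vim+/+ neutrophils at 0, since the fold changes of all 10 members add up exactly. For Ier3 the order from low to high was unstimulated Vim-/- (-1.24), unstimulated Vim+/+ (0), Vim-/- after LPS (1.03) and Vim+/+ after LPS (1.80), the widest range of the members at 3.05 log2 units. The outer neighbours in that order differed by the test in each case, and the middle ones, which differ in both genotype and treatment, have no comparison in the tables. For Fosb the order was unstimulated Vim+/+ (0), Vim+/+ after LPS (0.33), unstimulated Vim-/- (2.40) and Vim-/- after LPS (2.89), and neighbours of the same genotype did not differ beyond their error. For Egr1 it was Vim+/+ after LPS (-0.35), unstimulated Vim+/+ (0), unstimulated Vim-/- (1.23) and Vim-/- after LPS (1.35), again with no difference passing within a genotype. For Jun it was unstimulated Vim-/- (-1.05), Vim-/- after LPS (-0.39), Vim+/+ after LPS (-0.13) and unstimulated Vim+/+ (0), and no neighbours in that order passed. For Junb the unstimulated groups (-0.16 and 0) lay together below the LPS-treated groups (1.46 and 1.58), and the genotypes did not pass within either treatment. Fosl2 had the same order of groups as Junb, from -0.09 to 0.86. Fos was the reverse in treatment, with Vim+/+ after LPS lowest (-1.0), then Vim-/- after LPS (-0.20), unstimulated Vim+/+ (0) and unstimulated Vim-/- (0.21), where the lowest neighbours passed, the highest did not, and the middle ones have no comparison in the tables. The narrowest ranges were those of Jund (0.30) and Ier2 (0.42).

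**Figure D3:**
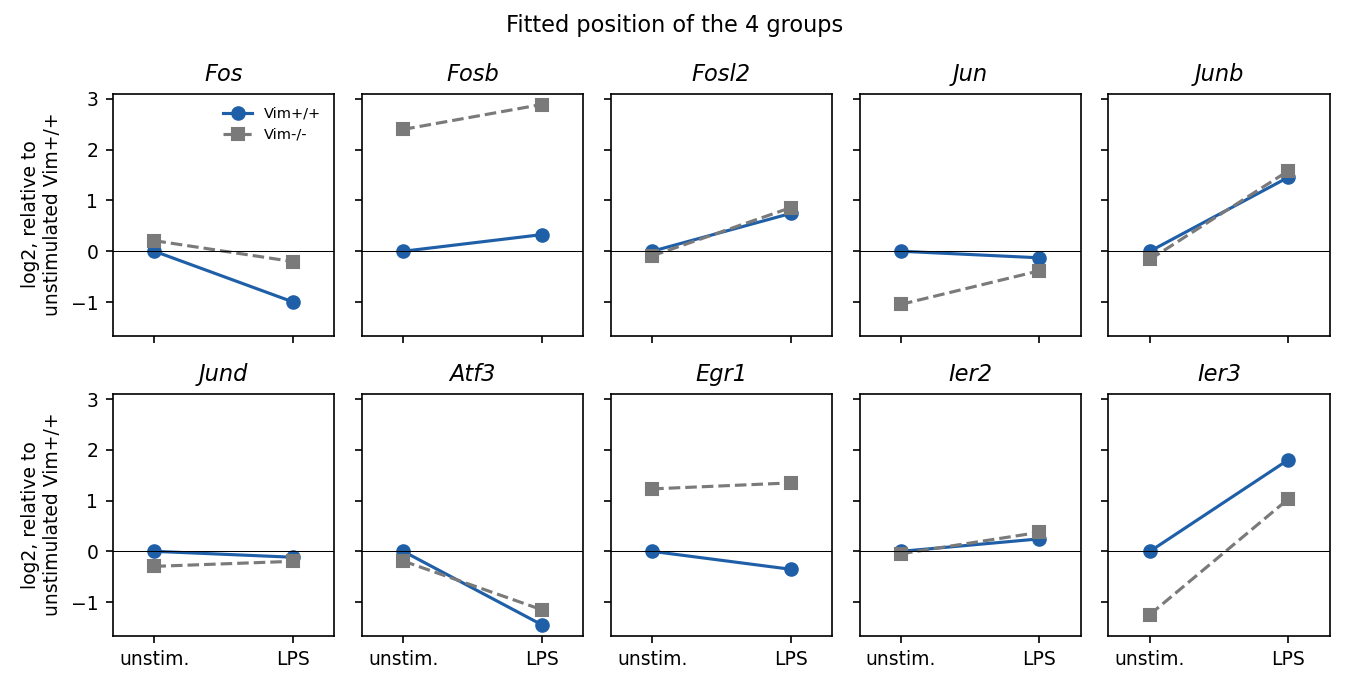
Fitted position of the 4 groups for each member on the log2 scale (y axis), relative to unstimulated Vim+/+ neutrophils at 0, with Vim+/+ as blue circles and Vim-/- as grey squares, and lines joining unstimulated to LPS-treated groups. Errors are those of the comparisons and are not drawn. The grey line runs above the blue one for Fosb and Egr1 and below it for Ier3, and both lines rise together for Junb and Fosl2.

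Whether the LPS response itself differed between genotypes was tested from the 2 LPS fold changes and their errors, which come from different libraries of 1 fit. The difference (Vim-/- minus Vim+/+) was positive for 10 of 10 members, with a median of 0.38 on the log2 scale, beside 5964 of 13091 genes and a median of -0.04. None of the 10 passed (0 by the normal test with Benjamini-Hochberg adjustment, where 0.0764% of 13091 genes did). At an unadjusted p under 0.05, 2 members (Jun and Ier3) were more positive in Vim-/- neutrophils, where 2.19% of genes were. All 10 differences stayed positive under the 3 settings that shift the fold changes or Wald statistics, and the other settings cannot change a sign. Other lists are set beside the members in this measure, and a difference between lists was not tested. The difference was positive for 7 of 7 measured heat-shock genes (median 0.28), 5 of 6 granulocyte progenitor markers (median 0.35) and 4 of 4 basophil and mast cell markers (median 0.27), and 0 of these genes passed by the same normal test, with 1 heat-shock gene at an unadjusted p under 0.05. It was positive for 10 of 16 other immediate-early genes (median 0.07), 7 of 13 other bZIP genes (median 0.08), 9 of 25 MAP kinase pathway genes (median -0.07), 3 of 12 neutrophil markers (median -0.13) and 0 of 5 monocyte and macrophage markers (median -0.14). Of 13 measured genes for SRF, its ternary complex partners and CREB regulators, 1 had a positive difference (median -0.42). The 10 members share the same libraries and are not 10 independent observations. The part of other cell types and of handling stress in the members' values was not tested.

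**Figure D4:**
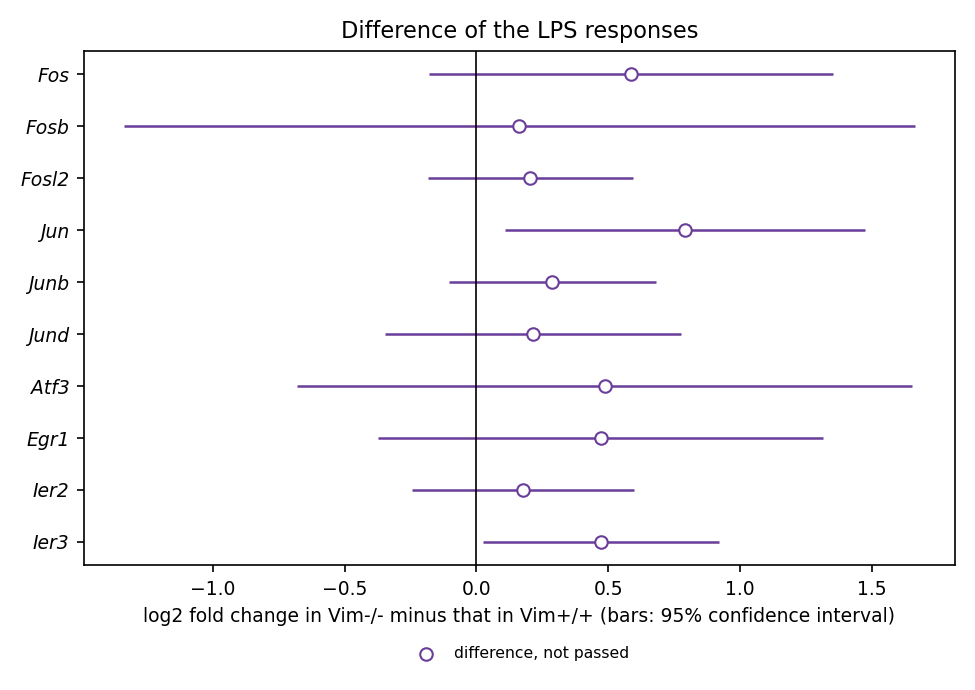
Difference of the log2 fold changes with LPS, Vim-/- minus Vim+/+ neutrophils (x axis), for each member with its 95% confidence interval. All 10 points lie to the right of 0, none passed after adjustment, and the intervals of Jun and Ier3 alone leave out 0.

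The difference was 0.79 [0.11 to 1.47] for Jun (SE 0.348, adjusted p = 0.777) and 0.47 [0.02 to 0.92] for Ier3 (SE 0.228, adjusted p = 0.815). Both genes were lower in unstimulated Vim-/- neutrophils, and the libraries of that group enter both comparisons. For Fos it was 0.59 [-0.18 to 1.35] (adjusted p = 0.926), so the LPS response of Fos, past the threshold in Vim+/+ neutrophils alone, was not shown to differ between the genotypes. For Junb the difference was 0.29 [-0.11 to 0.68] and for Fosl2 0.20 [-0.18 to 0.59].

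Most of the other immediate-early genes that passed between the genotypes were higher in Vim-/- neutrophils, as were most of all genes that passed. On a list of 18 such genes, 16 were measured, and 5 of them were higher and 1 lower in unstimulated Vim-/- neutrophils. After LPS 7 were higher and 1 lower. Over all genes, 12.6% were higher and 6.15% lower without stimulation, and 6.68% and 4.35% after LPS. The medians of the list were 0.46 and 0.41 log2 units, beside 0.08 and 0.03 for all genes. Nr4a1 (Nur77), an orphan nuclear receptor, was 7.76-fold higher without stimulation (log2 2.96, SE 0.295, adjusted p = 4.56e-21) and 14.5-fold higher after LPS (log2 3.86, SE 0.287, adjusted p = 5.09e-38). Egr3, a paralog of Egr1, was 6.73-fold higher (log2 2.75, SE 0.460, adjusted p = 1.29e-07) and 7.38-fold higher (log2 2.88, SE 0.480, adjusted p = 1.65e-07). Btg2, an antiproliferative gene, was 3.31-fold and 3.03-fold higher (adjusted p = 2.10e-25 and 7.80e-24). Ier5 was 1.48-fold and 1.56-fold higher. Nfil3, a bZIP repressor, was the gene that was lower, at -0.68 and -0.74 log2 units.

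At the robust spread, a setting chosen for this list after seeing the data, 2 genes passed without stimulation (Nr4a1 and Btg2) and 4 after LPS (these, Egr3 and Myc), all of them higher in Vim-/- neutrophils, where 1.44% and 2.22% of 13091 genes passed in either direction. Centred on genes of like transcript length, 5 passed without stimulation (Egr3, Nr4a1, Klf2, Ier5 and Btg2, all higher) and 7 after LPS, where 13.3% and 10.2% of 12046 genes did. Egr2, another paralog of Egr1, had log2 fold changes of 1.07 (SE 0.386, adjusted p = 0.0341) and 1.62 (SE 0.389, adjusted p = 0.000868) in the main test. Egr2 did not pass without stimulation when centred by transcript length (adjusted p = 0.0646), or in either treatment at the robust spread (adjusted p = 0.890 and 0.185). Egr1, Egr2 and Egr3 had positive genotype differences in both treatments under these settings too, and none of the 3 passed for LPS in either genotype.

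**Figure D5:**
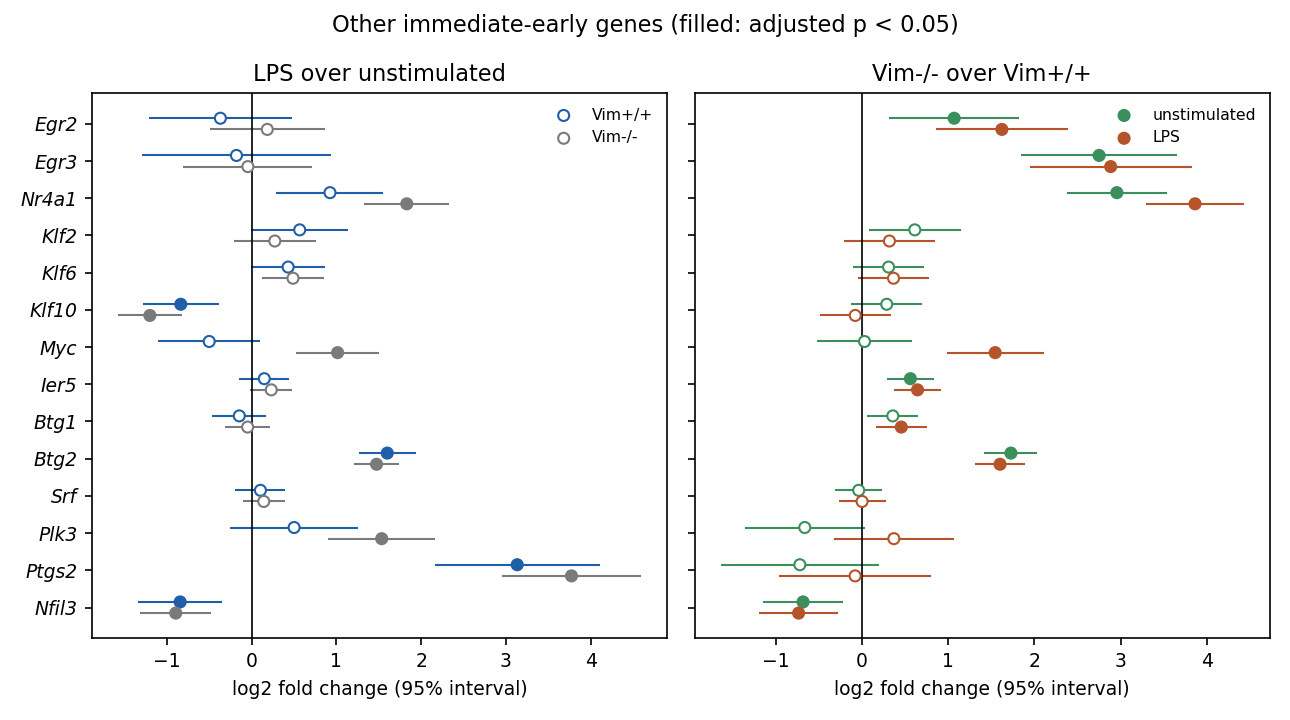
Log2 fold changes (x axis) of the 14 other immediate-early genes with a mean normalized count of at least 100, for LPS over unstimulated (left, Vim+/+ blue, Vim-/- grey) and for Vim-/- over Vim+/+ (right, unstimulated green, LPS brown), with 95% confidence intervals as bars and filled points for an adjusted p under 0.05. Egr2, Egr3, Nr4a1, Ier5 and Btg2 are filled on the right of 0 in both treatments, and Ptgs2 and Btg2 on the right of 0 in both LPS responses.

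With LPS, 2 of the 16 genes rose and 2 fell in Vim+/+ neutrophils, and 5 rose and 2 fell in Vim-/- neutrophils, where 1.80% and 0.374%, and 1.51% and 0.698%, of all genes did. Ptgs2, which encodes cyclooxygenase-2, rose by 3.13 (SE 0.496) and 3.77 (SE 0.418) log2 units, and Btg2 by 1.60 (SE 0.172) and 1.47 (SE 0.134). Klf10 fell by 0.84 and 1.2 log2 units and Nfil3 by 0.84 and 0.90. Nr4a1, Plk3 and Myc rose in Vim-/- neutrophils, by 1.83, 1.53 and 1.01 log2 units. Their differences from Vim+/+ neutrophils did not pass, with adjusted p of 0.781 for Nr4a1, 0.816 for Plk3 and 0.0991 for Myc.

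Among 13 measured genes of other bZIP subunits, of 16 listed, Cebpb rose in both genotypes, by 0.60 (SE 0.149) and 0.75 (SE 0.125) log2 units, and Maff rose in Vim-/- neutrophils by 2.34 (SE 0.413). The remaining 12 and 11 did not pass for LPS, where 1.80% and 1.51% of all genes rose. Between the genotypes 2 of the 13 were higher in each treatment, where 12.6% and 6.68% of all genes were. Cebpb encodes an activator of inflammatory genes and Maff a small Maf protein. Between genotypes Atf2, a partner of Jun, was higher in unstimulated Vim-/- neutrophils (log2 0.59, SE 0.201, adjusted p = 0.0240) and Atf5 after LPS (log2 0.51, SE 0.171, adjusted p = 0.0295). Maf was higher in both treatments, with large errors (log2 4.31, SE 1.11, and 5.19, SE 1.06). Fosl1, the remaining Fos-family gene, did not pass in any of the 4 comparisons.

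Upstream of AP-1, 25 of 25 listed MAP kinase pathway genes were measured, and LPS raised the same 2 in both genotypes, where 1.80% of all genes rose in Vim+/+ and 1.51% in Vim-/- neutrophils. Map3k8 (Tpl2), the kinase that links NF-κB signaling to ERK, rose by 2.96 (SE 0.178) and 3.54 (SE 0.149) log2 units. Mapkapk2, a substrate of p38, rose by 0.48 (SE 0.137) and 0.64 (SE 0.115) log2 units. Between the unstimulated genotypes Map3k1 (log2 1.2, SE 0.241) and Braf (log2 0.64, SE 0.220) were higher and Mapk14, which encodes p38α, was lower (log2 -0.37, SE 0.134) in Vim-/- neutrophils. After LPS Map3k1 and Map3k8 were higher and Mapk14 was lower. These are 2 higher and 1 lower of 25 in each treatment, beside 12.6% higher and 6.15% lower of all genes without stimulation and 6.68% and 4.35% after LPS. Mapk3, Mapk8 and Mapk9, which encode MAP kinases, did not pass in any of the 4 comparisons.

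Of 13 measured genes for SRF, its ternary complex partners and CREB regulators, which act on the Fos and Egr1 promoters, 0 passed for LPS in either genotype by DESeq2. At an unadjusted p under 0.05, 4 were higher in Vim+/+ and 1 was lower in Vim-/- neutrophils, as were 1032 and 512 of 13091 genes. Without stimulation 4 of the 13 were higher in Vim-/- neutrophils, where 12.6% of all genes were: Mkl2 (log2 1.17, SE 0.273), Ep300 (log2 0.82, SE 0.227), Elk4 (log2 0.79, SE 0.202) and Crebbp (log2 0.68, SE 0.189). After LPS these 4 did not pass, and Crem was lower (log2 -1.46, SE 0.447). Srf itself had a log2 fold change of -0.04 (SE 0.139, adjusted p = 0.891) between the unstimulated genotypes. The difference of LPS responses on this list had a median of -0.42, with 1 gene positive and 12 negative. Over all genes the median was -0.04, with 7127 of 13091 negative. By the normal test 0 of the list passed, and 3 were negative at an unadjusted p under 0.05, as were 504 of 13091 genes.

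Heat-shock genes, which rise with handling stress as immediate-early genes do, were read beside these results. Of 7 measured, 0 passed for LPS in either genotype by DESeq2, with 1 lower in Vim+/+ and 1 higher in Vim-/- neutrophils at an unadjusted p under 0.05, as were 496 and 435 of 13091 genes. Their difference of LPS responses was positive for 7 of 7, beside 5964 of 13091 genes. By the normal test 0 passed, and 1 was positive at an unadjusted p under 0.05, as were 287 of 13091 genes. Between genotypes Hspa8 was lower in Vim-/- neutrophils in both treatments (log2 -0.94, SE 0.144, and -0.54, SE 0.144), and Hspd1 was higher after LPS (log2 0.52, SE 0.174). Hspa1b, Dnajb1 and Hsph1 did not pass in any of the 4 comparisons.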

How the data were processed

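RNA of 10 libraries was sequenced after polyA selection. For the deposited values the authors used Cutadapt 4.4 for trimming, STAR 2.7.10b with the mm10 genome for alignment and counting, and DESeq2 1.26.0 with 4 surrogate variables from RUVSeq in the model. The gene annotation and the strand setting are not given in the sources used here, so overlapping and antisense genes cannot be separated. Taking 4 groups and 4 covariates from 10 libraries leaves only 2 degrees of freedom for the residual spread.

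The deposited tables hold, for each of 4 comparisons, a signal (baseMean, the authors' mean of normalized counts over libraries), a log2 fold change with its standard error, the Wald statistic (a score) and p-values, all from the authors' fit and used as deposited. Depth per library and values per replicate are therefore unknown, and precision rests on the standard errors. Repeating the Benjamini-Hochberg adjustment gave the deposited adjusted p. The sign of both genotype comparisons was reversed, so that a positive value is higher in Vim-/- cells. The labels give 2 Vim+/+ and 3 Vim-/- biological replicates, and the numbers in their descriptions tie each stimulated library to an unstimulated one.

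Python 3.11.15, numpy 2.4.6, scipy 1.17.1, pandas 2.3.3 and matplotlib 3.10.9 were used. The difference of LPS responses was a two-sided normal test, which leaves out the covariance through the shared covariates. Alternatives were a fold threshold of 1 log2 unit, Wald statistics less their median, over their robust spread (from the median absolute deviation), fold changes centred on genes with a baseMean of at least 100 or on the 500 genes nearest in length (12046 genes, 92.0%, matched to GENCODE M21), p adjusted over all genes or over genes with a baseMean of at least 100, and the difference taken between the genotype comparisons. Promoters and positions were taken from RefSeq. The members and gene lists were chosen with earlier results of these data known. All members are named, and list genes by their counts and the largest Wald statistics. Some genes of these lists are not reported here by name.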

Additional observations from a re-analysis of the deposited data

How the results depend on the processing

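No paired analysis was possible because the deposited tables analysed here hold fitted comparisons and no values per library, and for the same reason no replicate could be left out. Asking also for an absolute log2 fold change over 1, 2 members passed for LPS in Vim+/+ neutrophils and 2 between the LPS-treated genotypes, in place of 4 each. The Wald statistics had a robust spread of 1.83 between the unstimulated and 1.5 between the LPS-treated genotypes, where 1 is the spread without any difference. Divided by it, 1 member passed without stimulation (Ier3) and 2 after LPS (Egr1 and Ier3), in place of 4 each, and 2 and 4 of the other immediate-early genes, in place of 6 and 8. For LPS the spread was 1.17 in Vim+/+ and 0.947 in Vim-/- neutrophils, and Ier2 then passed in the latter (log2 0.43, adjusted p = 0.0426). Centred on genes of like transcript length, Fosl2 was lower in unstimulated Vim-/- neutrophils (log2 -0.43, adjusted p = 0.0243), and 2 differences that had not passed changed sign, that of Jund with LPS in Vim+/+ neutrophils to 0.013 and that of Ier2 between the unstimulated genotypes to 0.15. The cause of these shifts was not tested. Junb, Ier3 and Fosl2 kept an adjusted p under 0.05 for LPS in both genotypes under each of the 6 alternatives, with Fosl2 at most 0.0421. Fosl2 failed the added fold threshold in both genotypes (log2 0.74 and 0.95). That threshold left 2 members for LPS in Vim-/- neutrophils in place of 3, where 143 of 12329 genes were left. Of 300 values of single members under the alternatives, 283 kept their direction and their side of the threshold. A call was lost in 13, one was gained in 2, and the sign changed in 2. Most of the 300 had not passed in the main test and so had no call to lose. The count of 283 therefore does not measure how stable the calls were.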

Other observations

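The genes nearest to a member over the 4 log2 fold changes (Euclidean distance, among 10311 other genes with a mean normalized count of at least 100) are given as a description. The 4 values come from 1 fit and add up, so 3 of them are free. Ier3 lay nearest to Filip1l, at a distance of 0.14, with log2 fold changes of 1.71 and 2.18 for LPS in Vim+/+ and Vim-/- neutrophils and of -1.24 and -0.76 between the genotypes without and with LPS. The next was Dusp2, which encodes a MAP kinase phosphatase, at a distance of 0.50. Junb lay nearest to Dyrk3 (0.26) and Gm36117 (0.28), Fosl2 to Aoc2 (0.12) and Tpm4 (0.20), and Fos to Nlrp10 (0.14) and Focad (0.19). Aoc2, Gm36117, Focad and Nlrp10 had low mean normalized counts, from 115 to 213.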
